A study of Mus musculus with 15 samples.

Results

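The 10 circadian clock genes Per1, Per2, Per3, Cry1, Cry2, Clock, Nr1d1, Nr1d2, Dbp and Tef were followed in whole mouse ovaries. They were taken by gene symbol from a table of 24656 genes. All 10 were found, and all 10 passed the filter on low values, as did 17569 genes in all. RNA came from 1 ovary of each of 15 female UM-HET3 mice, a genetically mixed stock in which each animal has its own genotype, so the replicates were separate animals. 5 mice were untreated controls of 6 months, 5 were untreated controls of 12 months, and 5 were 12-month mice that had been given canagliflozin from 6 months of age. Canagliflozin is an inhibitor of the renal glucose transporter SGLT2. The labels gave no time of day of collection, stage of the estrous cycle or sequencing batch, and they described RNA extraction for the 12-month groups only.

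The clock is a feedback loop that runs in most cells with a period of about a day. The proteins CLOCK and BMAL1 bind E-box sequences and switch on the Per, Cry, Nr1d and Dbp genes. PER and CRY proteins then block CLOCK and BMAL1, the NR1D receptors (REV-ERBs) repress Bmal1 through a sequence called the RORE, and DBP, TEF and HLF activate genes through D-box sequences where NFIL3 represses them. In the ovary the loop is known from granulosa, theca and luteal cells, where gonadotropins can set its phase. The amount of such transcripts can depend on the hour at which a tissue is taken, more for some of them than for others.

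Promoter windows show which of these elements the genes carry close to their starts. Windows of 250 bases before to 50 bases after a RefSeq transcription start (GRCm38.p6) were matched for 9 of the 10 genes, in 13 windows; Per2 was not matched. Both strands were searched for the E-box CACGTG, the related E'-box CACGTT, the D-box TTATGTAA or TTACGTAA, the RORE TAGGTCA or TGGGTCA, and the cyclic AMP element TGACGTCA. An E-box lay in windows of 3 genes (Per1, Cry1 and Tef), an E'-box in windows of 3 (Cry1, Cry2 and Nr1d1) and a D-box in that of Per3 alone. Counted by window, 4 of the 13 held the E-box, 3 the E'-box, 1 the D-box, 0 the RORE and 0 the cyclic AMP element. Of all 32851 windows, 7.15% held the E-box, 4.68% the E'-box, 1.06% the D-box, 6.45% the RORE and 1.79% the cyclic AMP element. The following windows, 5′ to 3′ on the strand of the gene, belong to the 3 genes that fell with age, to Per3, the only one with a D-box match, and to Bmal1, the partner that NR1D1 represses. Capitals mark the matched motif, and no matched motif in them overlapped another.
Nr1d1, chr11:98775328-98775627, minus strand, E'-box on its reverse strand: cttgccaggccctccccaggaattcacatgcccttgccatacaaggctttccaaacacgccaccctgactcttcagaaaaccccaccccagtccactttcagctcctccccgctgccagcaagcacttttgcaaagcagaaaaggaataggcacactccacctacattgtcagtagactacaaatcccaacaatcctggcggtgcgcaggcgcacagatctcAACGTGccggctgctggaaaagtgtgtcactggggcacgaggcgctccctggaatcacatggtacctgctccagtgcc
Dbp, chr7:45704997-45705296, plus strand, no match: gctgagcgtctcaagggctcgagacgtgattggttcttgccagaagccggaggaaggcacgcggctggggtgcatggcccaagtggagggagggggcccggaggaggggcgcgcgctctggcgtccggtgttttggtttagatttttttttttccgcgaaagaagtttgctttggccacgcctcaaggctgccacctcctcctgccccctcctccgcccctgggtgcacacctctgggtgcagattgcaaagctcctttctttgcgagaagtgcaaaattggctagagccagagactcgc
Tef, chr15:81802423-81802722, plus strand, E-box: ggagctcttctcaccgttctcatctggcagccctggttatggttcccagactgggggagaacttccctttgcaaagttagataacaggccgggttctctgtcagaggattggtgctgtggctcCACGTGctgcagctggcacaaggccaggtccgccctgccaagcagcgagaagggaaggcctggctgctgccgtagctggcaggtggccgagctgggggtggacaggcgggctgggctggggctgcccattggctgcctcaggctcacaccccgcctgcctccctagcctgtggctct
Per3, chr4:151044616-151044915, minus strand, 2 D-boxes: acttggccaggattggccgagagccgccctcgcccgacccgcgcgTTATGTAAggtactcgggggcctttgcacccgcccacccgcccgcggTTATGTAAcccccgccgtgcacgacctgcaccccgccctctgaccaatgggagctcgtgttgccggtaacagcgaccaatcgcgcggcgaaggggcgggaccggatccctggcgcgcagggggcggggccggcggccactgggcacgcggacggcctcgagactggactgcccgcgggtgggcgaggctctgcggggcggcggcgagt
Bmal1 (Arntl), chr7:113207261-113207560, plus strand, RORE: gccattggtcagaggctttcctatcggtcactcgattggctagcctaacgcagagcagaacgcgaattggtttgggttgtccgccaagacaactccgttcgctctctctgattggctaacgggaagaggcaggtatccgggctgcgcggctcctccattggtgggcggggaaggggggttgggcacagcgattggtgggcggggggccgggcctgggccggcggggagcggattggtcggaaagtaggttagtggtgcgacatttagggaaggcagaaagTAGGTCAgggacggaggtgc
The Nr1d1 match began 28 bases before the start and the Tef match 127 bases before it. The Per3 matches began 205 and 158 bases before the start, and the Bmal1 match 30 bases after it. Tef had another window, also with an E-box (138 bases before its start), and Bmal1 another without a RORE match. A match describes letters in the window and was not tested as a binding site.

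Values are given as normalised reads, the reads of a gene divided by 1 size factor per library. Library depth ran from 8472205 to 13629491 reads, and the 10 genes had between 140 (lowest library, Cry1) and 5645 (highest library, Dbp) reads. The ovary markers Foxl2 and Amh (granulosa cells), Gdf9 and Zp3 (oocytes) and Cyp11a1 (steroid-making cells) were detected in every library. The share of reads from mitochondrially encoded genes was 2.72% to 3.19% in the 6-month controls, 3.70% to 4.46% in the 12-month controls and 4.84% to 9.37% with canagliflozin, with no overlap between the groups; its part in the group differences below was not tested.

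Per kilobase of exon, so that genes can be set side by side, Dbp had the highest mean level in the 6-month controls at 1103 normalised reads per kb. Nr1d1 followed at 693, then Tef at 338.5, Per1 at 332, Nr1d2 at 273, Cry2 at 134, Per3 at 90.5, Per2 at 88.9, Cry1 at 58.95 and Clock at 40.25. The ranges of Dbp and Nr1d1 overlapped over the 5 libraries, as did those of Tef, Per1 and Nr1d2, those of Cry2 and Per3, and those of the neighbours from Per3 down to Clock. The gaps from Nr1d1 to Tef and from Nr1d2 to Cry2 were wider than the spread. In the 12-month controls Dbp (445 per kb) and Nr1d1 (314 per kb) were still the highest, and the distance to Nr1d2 (249.5 per kb) and Tef (241 per kb) was smaller.

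**Figure D1:**
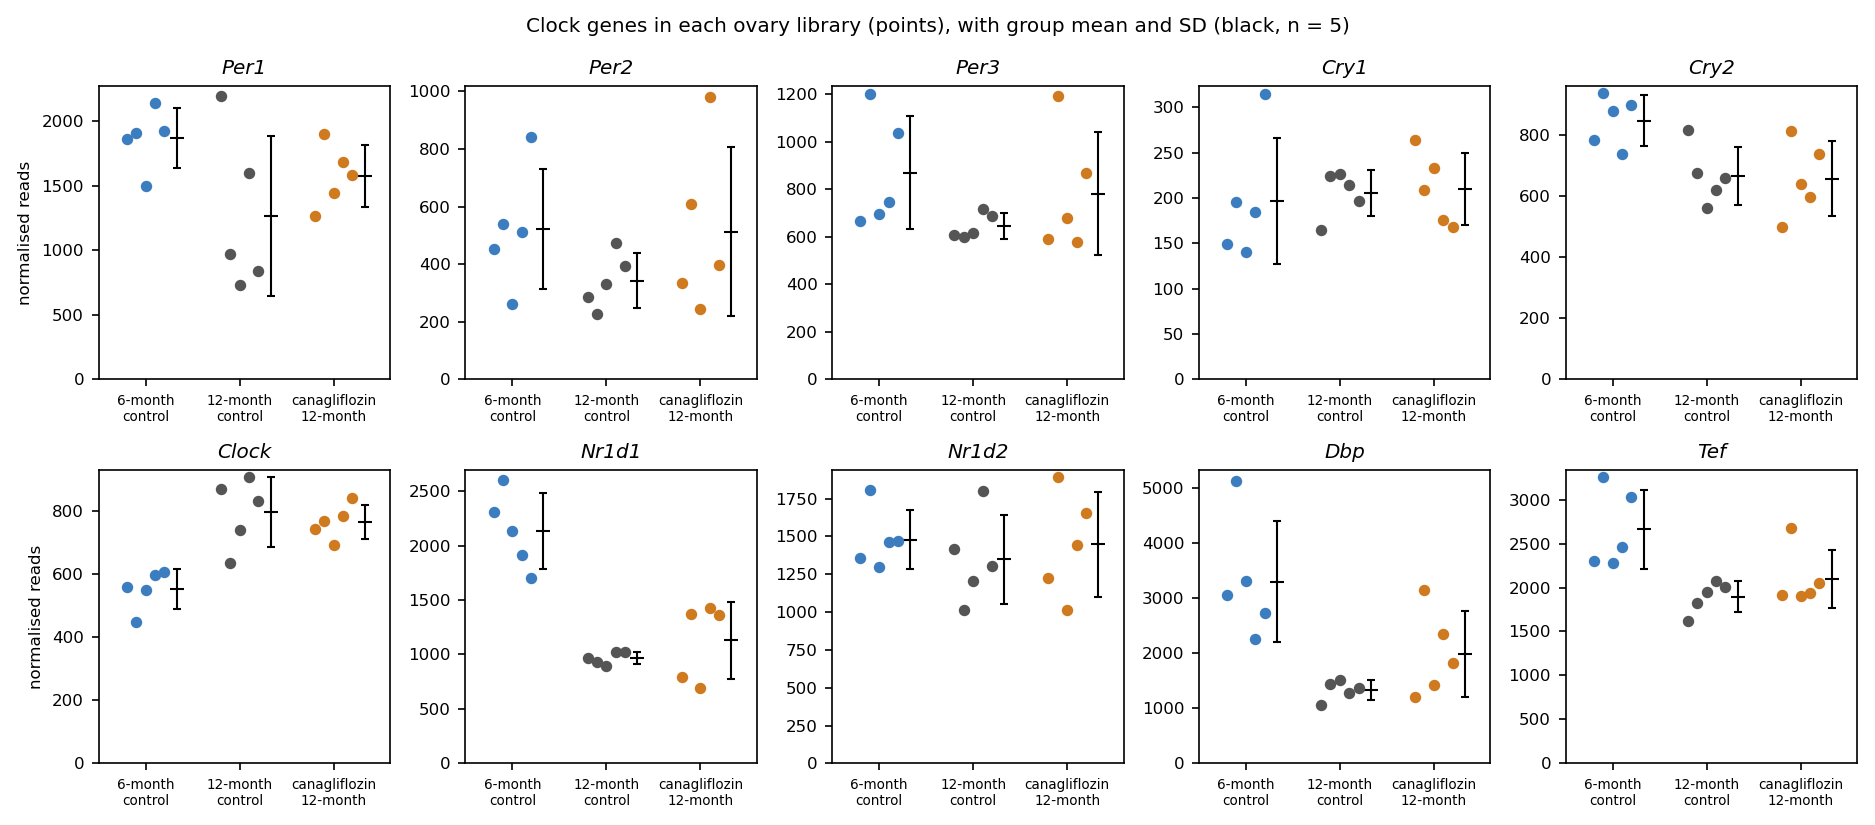
Normalised reads of the 10 clock genes in each of the 15 ovary libraries; points are libraries, black bars the group mean with its SD (n = 5), and each axis starts at 0. Nr1d1 and Dbp were below every 6-month library in all 5 of the 12-month controls, and Clock was above every 6-month library.

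With age, from 6 to 12 months in untreated mice, 3 output and repressor genes of the clock fell and Clock rose. Nr1d1 fell to 0.458 of the 6-month level and Dbp to 0.416, Tef fell to 0.717, and Clock rose by a factor of 1.44. These 4 of the 10 genes passed an adjusted p of 0.05 in limma with Benjamini-Hochberg adjustment over all genes tested, 3 lower and 1 higher. Over all genes tested, 7.01% were called lower and 5.40% higher. The same 4 genes had groups that did not overlap, against 8.07% of all genes with 12-month libraries all lower and 5.63% with 12-month libraries all higher. The median log2 fold change of the 10 genes was -0.44, and that of all genes was 0.004.

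Nr1d1 encodes REV-ERBα, the nuclear receptor that represses Bmal1. Its normalised reads were 2310, 2599, 2138, 1917 and 1704 in the 6-month controls and 970, 930, 898, 1020 and 1019 in the 12-month controls. Every 12-month library lay below every 6-month library, and the 12-month libraries were close to each other. The mean fell from 2134 ± 346 to 967 ± 54.0 (SD, n = 5 each), a log2 fold change of -1.13 (SE 0.19, limma adjusted p = 0.0014). Its relative Nr1d2 encodes REV-ERBβ and did not pass, at 1478 ± 196 against 1349 ± 294 (log2 fold change -0.15, SE 0.17, limma adjusted p = 0.61). Nr1d1 and Thra, the thyroid hormone receptor gene on the opposite strand, share 263 exon bases (8.55% of the Nr1d1 exons). Whether reads were counted by strand was not given in the sources used here, and Thra differed by -0.32 on the log2 scale (SE 0.10, limma adjusted p = 0.059).

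Dbp encodes a D-box activator that is among the strongest cycling outputs of the clock. Its values were 3068, 5128, 3314, 2261 and 2735 in the 6-month controls and 1057, 1448, 1508, 1284 and 1361 in the 12-month controls. The groups did not overlap, and replicate 2 of the 6-month controls was the highest library. The mean was 3302 ± 1095 at 6 months and 1331 ± 176 at 12 months (SD, n = 5 each), a log2 fold change of -1.26 (SE 0.24, limma adjusted p = 0.0038). Dbp shares 539 exon bases (18.0%) with Sphk2, a sphingosine kinase gene on the opposite strand, and Sphk2 differed by -0.02 on the log2 scale (limma adjusted p = 0.92).

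Tef, the second D-box activator of the same family, was measured at 2297, 3256, 2276, 2457 and 3031 in the 6-month controls and at 1625, 1820, 1951, 2074 and 2004 in the 12-month controls. Again no library of one group reached the other. The log2 fold change was -0.48 (SE 0.12, limma adjusted p = 0.018). The call rested in part on replicate 2 of the 6-month controls, the highest library: without it the log2 fold change was -0.40 and the adjusted p 0.053.

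Clock, the DNA-binding activator, moved the other way. Its values were 558, 449, 549, 599 and 608 in the 6-month controls and 872, 634.5, 742, 908 and 834 in the 12-month controls. All 12-month libraries were above all 6-month libraries. The mean rose from 553 ± 63.2 to 798 ± 110 (SD, n = 5 each), a log2 fold change of 0.53 (SE 0.11, limma adjusted p = 0.0051). Nr1d1, Dbp and Clock kept their calls in all 15 fits that left out 1 library.

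The 3 Period genes, which encode the inhibitors of CLOCK and BMAL1, all had lower means at 12 months and none passed. Per1 was measured at 1862, 1911, 1502, 2145 and 1929 in the 6-month controls and at 2197, 969, 731, 1597 and 839 in the 12-month controls. Replicate 1 of the 12-month controls was the highest of these 10 libraries and replicate 4 lay within the 6-month range, while the remaining 3 were lower than any 6-month library. The log2 fold change was -0.68 (SE 0.24, limma adjusted p = 0.078). Without replicate 1 of the 12-month controls it was -0.91 with an adjusted p of 0.0087. Per2 had a log2 fold change of -0.56 (SE 0.35, limma adjusted p = 0.34), and Per3 one of -0.39 (SE 0.20, limma adjusted p = 0.21).

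The cryptochromes, the PER partners, did not pass either. Cry2 had 847 ± 82.5 normalised reads at 6 months and 665 ± 95.1 at 12 months (SD, n = 5 each), with 4 of the 5 12-month libraries below all 6-month libraries. Its log2 fold change was -0.35 (SE 0.13, limma adjusted p = 0.086), and the adjusted p went to 0.048 without replicate 1 of the 12-month controls and to 0.049 without replicate 1 of the canagliflozin mice. Cry1 was at 197 ± 69.6 and 206 ± 25.4, a log2 fold change of 0.11 (SE 0.19, limma adjusted p = 0.75).

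Marker transcripts of several cell types differed with age as well. In whole tissue, fewer cells of a type and less RNA per cell cannot be told apart. Over all genes tested, 7.01% were called lower with age and 5.40% higher. Of 6 fat cell markers, 5 were higher at 12 than at 6 months. The summed level of the 6 was 806 to 1333 normalised reads at 6 months and 1725 to 2530 at 12 months. Of these markers, 3 averaged under 10 normalised reads at 6 months (Adipoq 0.90, Retn 1.30 and Cfd 2.86). Plin1 was the fat cell marker not called, with a mean of 365 at 6 months and 321 at 12 months. Of 5 stroma markers, 2 (Col1a1 and Col1a2) were lower, with a summed level of 32040 to 43150 at 6 months and 14560 to 29500 at 12 months. The stroma markers not called had log2 fold changes of 0.055 (Pdgfra), -0.047 (Dcn) and -0.79 (Lum). Of 5 macrophage markers, 2 (Adgre1 and Csf1r) were lower, with summed levels of 1459 to 2341 and 765.5 to 2073. The macrophage markers not called had 6-month and 12-month means of 280 and 300 (Cd68), 639 and 677 (C1qa), and 34.7 and 19.6 (Cd163). Of 6 corpus luteum markers 1 was higher, with summed levels of 13800 to 63480 and 43100 to 118400. The luteal estimates were positive for 5 of the 6, and Parm1 went the other way (log2 fold change -0.935, limma adjusted p = 0.062). The granulosa list had 1 of 8 higher, the smooth muscle list 1 of 5 lower and the endothelial list 1 of 6 lower. The oocyte, theca, red cell, oviduct and surface epithelium lists had 0 called, and 0 markers of any list were called between treated and untreated 12-month mice. No marker of these lists was at 0 in every library of a group, and the part of cell make-up in the clock gene values was not tested. Because the 6-month ovaries may also have been taken or prepared at another time, age and such a batch cannot be told apart.

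**Figure D2:**
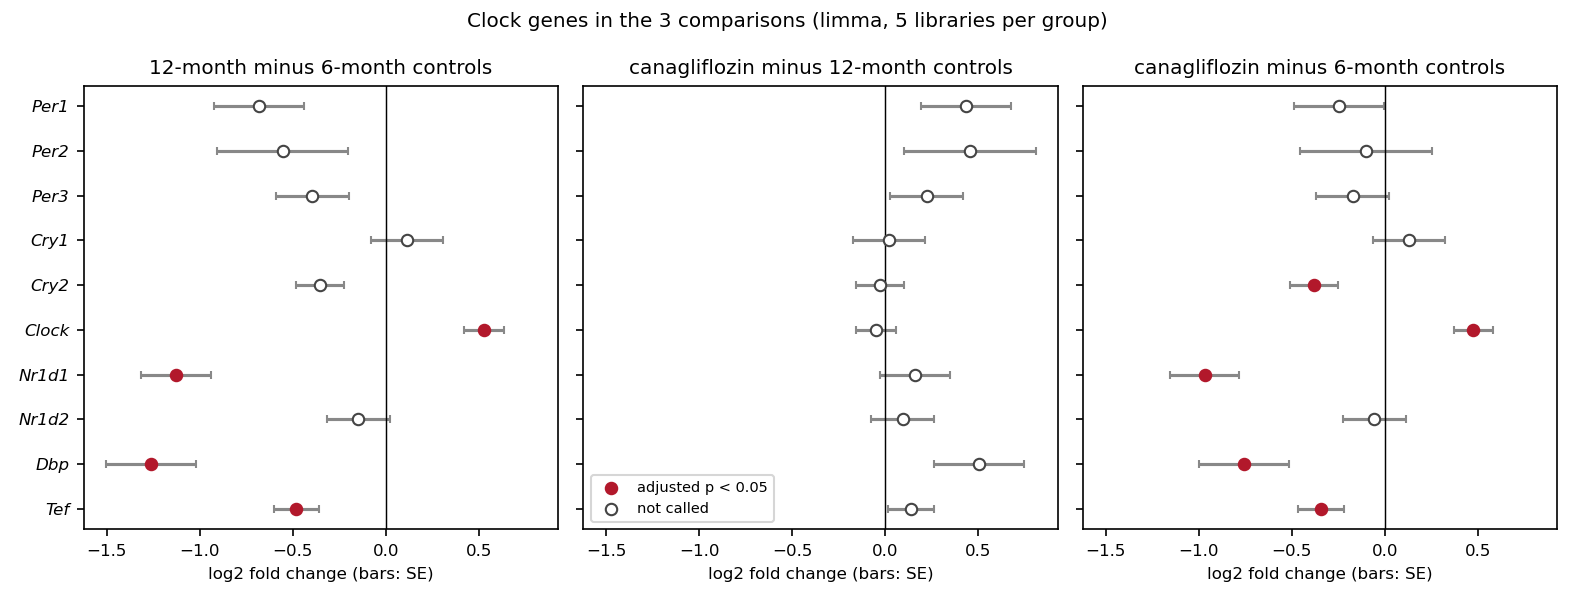
Log2 fold changes of the 10 clock genes with their SE (bars) in the 3 comparisons, 5 libraries per group; filled red points passed an adjusted p of 0.05. Between the canagliflozin mice and the 12-month controls no gene passed, while Nr1d1, Dbp and Tef were lower and Clock higher than at 6 months in both 12-month groups.

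Against untreated mice of the same age, canagliflozin changed none of the 10 clock genes past the threshold. In this comparison 0 of the 10 genes passed the adjusted p and 0 had an unadjusted p under 0.05. By the same adjusted threshold, 0.00569% of all genes tested (1 gene) were called in either direction, and edgeR, DESeq2 and limma-voom called 0 of the 10 too. None of the 10 had groups that did not overlap, against 1.05% of all genes. The estimate was positive for 8 of the 10. Their log2 fold changes had a median of 0.15, where all genes had one of -0.002.

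Dbp, Per2 and Per1 had the highest estimates of the 10 genes in this comparison, in an order that changed with single libraries. With 1 library left out, Dbp ran from 0.32 (without replicate 2 of the treated mice) to 0.665, Per2 from 0.18 (without replicate 4 of the treated mice) to 0.68 and Per1 from 0.27 (without replicate 3 of the 12-month controls) to 0.66. Dbp values with canagliflozin were 1206, 3158, 1428, 2344 and 1826, against 1057 to 1508 in the 12-month controls. 3 treated libraries were above every control and the other two were within the control range. The log2 fold change was 0.51 (SE 0.24, limma adjusted p = 0.55). Per2 was measured at 336, 608, 244, 980 and 398 in the treated mice and at 286, 226, 332, 473 and 392.5 in the controls. Replicates 2 and 4 of the treated mice were above all controls, and the log2 fold change was 0.46 (SE 0.35, limma adjusted p = 0.69). Without replicate 4 of the treated mice it was 0.18.

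Per1 differed by 0.43 (SE 0.24, limma adjusted p = 0.59), its 5 treated libraries, at 1268 to 1905, lying inside the wide control range of 731 to 2197. Nr1d1 split in the treated group: replicates 1 and 3, at 793 and 691, were below all controls, and replicates 2, 4 and 5, at 1369, 1428 and 1366, were above all of them. Its log2 fold change was 0.16 (SE 0.19, limma adjusted p = 0.80). Clock differed by -0.05 (SE 0.11), Cry2 by -0.03 (SE 0.13) and Cry1 by 0.02 (SE 0.19) on the log2 scale. Per3 had a log2 fold change of 0.22 (SE 0.20), Tef of 0.14 (SE 0.12) and Nr1d2 of 0.09 (SE 0.17). A p above the threshold does not show that the levels were equal.

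Against the 6-month controls, the canagliflozin mice had lower Nr1d1, Dbp, Cry2 and Tef and higher Clock. This comparison shares its 6-month libraries with the age comparison and its treated libraries with the drug comparison, so the 3 sets of values are not independent. Of the 10 genes, 4 were called lower and 1 higher, where 14.9% of all genes were called lower and 13.5% higher. Nr1d1 alone had treated libraries all below the 6-month libraries, as did 10.4% of all genes, and Clock alone had them all above, as did 8.05% of all genes. Cell markers moved in this comparison too: 3 of 5 stroma, 3 of 5 macrophage and 3 of 5 smooth muscle markers were lower. Of 6 fat cell markers, 5 were higher and 1 (Plin1) lower. The corpus luteum and endothelial lists, of 6 markers each, had 2 higher and 1 lower, and the granulosa list had 1 of 8 higher. In the oocyte, theca, red cell, oviduct and surface epithelium lists 0 were called. The part of cell make-up in these clock gene values was not tested.

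Nr1d1 had a log2 fold change of -0.97 (SE 0.19, limma adjusted p = 0.0014), beside -1.13 in the untreated mice. Thra, which overlaps it, was also lower here, at -0.49 (SE 0.10, limma adjusted p = 0.0028), with all 5 treated libraries below the 6-month libraries. Clock, at 743.5, 769, 694, 786 and 841 in the treated mice, had one of 0.48 (SE 0.11, limma adjusted p = 0.0039), beside 0.53. Both were called in all 15 fits that left out 1 library. Dbp was at -0.76 (SE 0.24, limma adjusted p = 0.029), beside -1.26. Its adjusted p rose to at most 0.077 when 1 library was left out, and it lost the call in 4 of those 15 fits (without replicate 1 or 3 of the canagliflozin mice, or 2 or 3 of the 6-month controls). Cry2 was at -0.38 (SE 0.13, limma adjusted p = 0.036) and lost the call in 6 of the 15 fits, and Tef was at -0.34 (SE 0.12, limma adjusted p = 0.049) and lost it in 11. For Cry2 these were the fits without replicate 1, 3 or 4 of the treated mice or 2, 3 or 5 of the 6-month controls. Tef held only without replicate 2 of the treated mice, 1 of the 12-month controls, or 1 or 3 of the 6-month controls, since its adjusted p lay near the threshold. The Period genes, Cry1 and Nr1d2 did not pass.

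The spread between ovaries of one group was wide for some of the genes. Pooled over the 3 groups, the within-group SD of log2 values was 0.615 for Per2, the widest, 0.42 for both Dbp and Per1, and 0.17 for Clock, the narrowest. With all genes tested split into 10 classes of 1757 or so by mean level, and ranked within a class, Per2 stood at percentile 97.9, Dbp at 90.5, Per1 at 90.2, Per3 at 88.3, Nr1d1 at 87.9, Tef at 52.1 and Clock at 41.3. In all, 9 of the 10 genes were above the median spread of their class, with a median percentile of 81.9. Ranked among all genes tested, the median percentile was 59.3. The pooled SD had a median of 0.32 for the 10 genes and 0.27 for all genes tested. By group, the median SD of the 10 genes was above that of all genes with canagliflozin (0.31 and 0.29) and in the 6-month controls (0.24 and 0.21) and below it in the 12-month controls (0.20 and 0.245).

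The groups differed in which gene was spread out. Per1 varied most in the 12-month controls (SD 0.67 on the log2 scale, highest library 3.01 times the lowest) and less in the 6-month (SD 0.19) and treated mice (SD 0.22). Nr1d1 was tightest in the 12-month controls (SD 0.08, highest library 1.14 times the lowest) and widest with canagliflozin (SD 0.50, 2.07 times). Per3 followed the Nr1d1 order between these groups, with an SD of 0.12 in the 12-month controls, 0.38 in the 6-month controls and 0.44 with canagliflozin. The differences between these SDs were not tested. Time of collection was not in the labels, and its part in the spread was not tested.

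**Figure D3:**
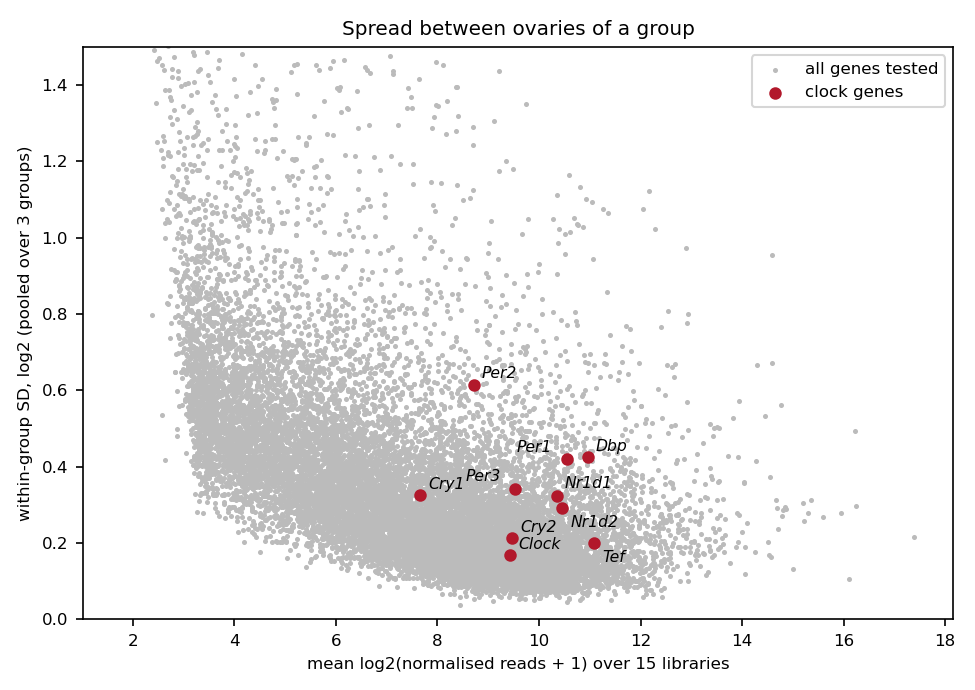
Within-group SD on the log2 scale, pooled over the 3 groups, against mean log2 level for all 17569 genes tested (grey) and the 10 clock genes (red); 190 genes lie above the top of the axis at 1.5. Per2, Per1 and Dbp sit high among genes of like level and Clock and Tef sit among the bulk.

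Bmal1, listed under its older symbol Arntl, is known to peak at the opposite time of day to Dbp in tissues with a running clock. Deviations from the group mean were compared over the 15 libraries in 19 relations, Bmal1 with each of the 10 genes and Dbp with each of the other nine. None of the 19 had an adjusted p under 0.05 (two-sided permutation of libraries within groups, Benjamini-Hochberg over 19), and 2 had an unadjusted one under it. Bmal1 and Dbp had r = -0.355 (rho = -0.29, permutation p = 0.27, adjusted p = 0.51), and r was -0.48 without the 2 libraries farthest from the median. With 1 library left out it ran from -0.66 (without replicate 1 of the treated mice) to -0.17 (without replicate 2 of the 6-month controls). Bmal1 was negatively related to 7 of the 10 genes, from -0.43 for Tef to 0.255 for Cry2.

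Dbp ran most closely with Nr1d1 among the 10 genes, at r = 0.74 (rho = 0.70, permutation p = 0.025, adjusted p = 0.25), and r was 0.69 without the 2 farthest libraries. With Tef it had r = 0.64 (rho = 0.54, permutation p = 0.026, adjusted p = 0.25), but 0.20 without the 2 farthest libraries, so that value rested on them. In the treated mice, replicate 2 was above its group mean in both Dbp and Nr1d1 and replicates 1 and 3 were below it in both. With Per1, Dbp had r = -0.05 (rho = -0.08, permutation p = 0.78, adjusted p = 0.78).

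**Figure D4:**
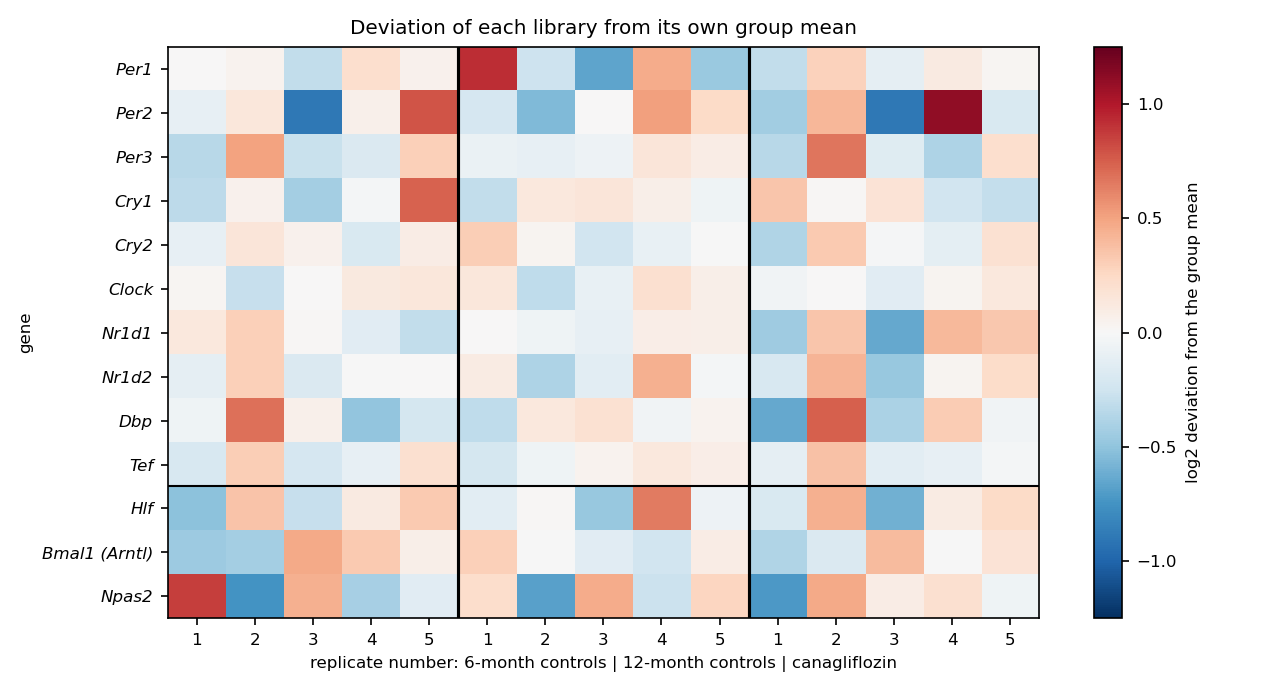
Log2 deviation of each library from the mean of its own group for the 10 clock genes and, below the line, Hlf, Bmal1 (Arntl) and Npas2; columns are replicates 1 to 5 of each group. Canagliflozin replicate 2 was high in Dbp, Per3 and Nr1d1, and Per1 was high in replicate 1 of the 12-month controls where Dbp was not.

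Over 11813 genes with a mean of at least 50 normalised reads, the within-group deviations most like those of Dbp were in Pex19 (r = 0.89), Asrgl1 (0.89), Mfsd3 (0.88), Emc1 (0.86), Calm3 (0.86) and Smpdl3b (0.85). The most opposite were in Heatr1 (-0.90), Ttf1 (-0.89), Mdn1 (-0.87), Cul1 (-0.86), Surf6 (-0.86) and Pkp4 (-0.86). Among these genes Nr1d1 stood at percentile 99.3 of likeness to Dbp, Tef at 97.3, Per3 at 95.2, Nr1d2 at 89.9, Cry2 at 88.6, Per2 at 81.5, Per1 at 45.0, Cry1 at 32.3 and Clock at 18.8. For Per3, r was 0.585 over 15 libraries and 0.051 without the 2 farthest libraries, so that likeness rested on them. Tspan4, a listed clock output, had r = 0.84 with Dbp (percentile 99.9). These are descriptions over 15 libraries and carry no test. Depth differed between the libraries, from 8472205 reads in replicate 2 of the canagliflozin mice to 13629491 in replicate 4 of the 6-month controls. That shallowest library also had the largest Dbp deviation, at 0.751 on the log2 scale. The part of depth and processing in these likenesses was not tested.

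Other genes of the pathway followed the age comparison in part. Of 11 output and repressor genes, 4 were called lower at 12 months and 0 higher, where 7.01% of all genes were called lower and 5.40% higher (median of the 11 log2 fold changes -0.45). Hlf, the third D-box activator beside Dbp and Tef, was measured at 198, 361, 231, 305 and 355 in the 6-month controls and at 129, 144, 102, 224 and 135.5 in the 12-month controls. 4 of the 12-month libraries were below all 6-month libraries and replicate 4 overlapped them, and the log2 fold change was -0.99 (SE 0.23, limma adjusted p = 0.011). Wee1, a cell cycle kinase gene with E-box control, fell by 0.68 (limma adjusted p = 0.034), Tspan4 fell by 0.565 (adjusted p = 0.011 by limma) and Por, the electron donor of cytochrome P450 enzymes, fell by 0.71 (adjusted p = 0.015 by limma). The Wee1 call did not hold in 8 of the 15 fits with 1 library fewer, with an adjusted p of up to 0.081 (without replicate 1, 2, 3 or 4 of the 12-month controls, or 1, 2, 3 or 5 of the 6-month controls). The same 4 were lower in the canagliflozin mice than at 6 months, Hlf by -1.06 on the log2 scale, and none differed past the threshold from the 12-month controls.

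Other repressors and outputs did not pass in any comparison by limma over all 15 libraries. Nfil3, the D-box repressor, had a log2 fold change of 0.30 with age (SE 0.32), Bhlhe40 one of -0.35 (SE 0.46) and Bhlhe41 one of -0.45 (SE 0.22), the last pair being E-box repressors. Ciart, a repressor of CLOCK and BMAL1 whose window held 3 E-boxes, was at 128, 70.0, 90.8, 87.2 and 58.0 normalised reads with canagliflozin and at 56.3, 61.1, 56.0, 42.05 and 51.2 in the 12-month controls. 4 treated libraries were above all controls, and the log2 fold change was 0.65 (SE 0.23, limma adjusted p = 0.46).

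On the activator side, limma over all 15 libraries called 0 of 5 tested genes of 6 listed in any comparison. Of all genes, 7.01% were called lower and 5.40% higher with age, and 0.00569% in either direction with the drug. In treated against 6-month mice, 14.9% of all genes were called lower and 13.5% higher. Bmal1 was at 72.0, 73.6, 138, 125 and 104 in the 6-month controls and at 181, 146.5, 133, 124 and 157 in the 12-month controls. 3 of the 12-month libraries were above all 6-month libraries, and the log2 fold change was 0.57 (SE 0.20, limma adjusted p = 0.074). It passed by voom (0.67, adjusted p = 0.018) and by limma without replicate 3 of the 6-month controls (0.69, adjusted p = 0.040). Npas2, a stand-in for Clock, had one of 0.45 (SE 0.32, limma adjusted p = 0.39), and Rora, the activator that competes with NR1D1, one of 0.26 with age (SE 0.29) and of 0.785 in the treated mice against 6 months (SE 0.29, limma adjusted p = 0.053). Rora passed in that last comparison by edgeR (0.86, adjusted p = 0.034), by DESeq2 (0.86, adjusted p = 0.010), by voom (0.77, adjusted p = 0.031), with the filter at 50 (adjusted p = 0.048) and in 3 of the 15 limma fits with 1 library fewer (without replicate 1 of the treated mice, or 2 or 3 of the 12-month controls). When Bmal1 entered the fit as a covariate, Nr1d1 alone of the 10 genes was called with age. The estimates then were 0.45 for Clock (adjusted p = 0.075 by limma), -1.002 for Dbp (adjusted p = 0.071 by limma) and -0.33 for Tef (adjusted p = 0.23 by limma). Hlf, Wee1, Tspan4, Por and Csnk1d lost their age calls in that fit too, with limma adjusted p from 0.064 (Por) to 0.19 (Wee1). Their estimates in that order were -0.84, -0.62, -0.52, -0.79 and -0.31. Without the covariate they were -0.99, -0.68, -0.565, -0.71 and -0.29. Bmal1 itself differed by 0.57 with age, so the covariate and the age groups overlap, and what lay behind the lost calls was not tested. The calls over all genes went from 2179 to 794.

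**Figure D5:**
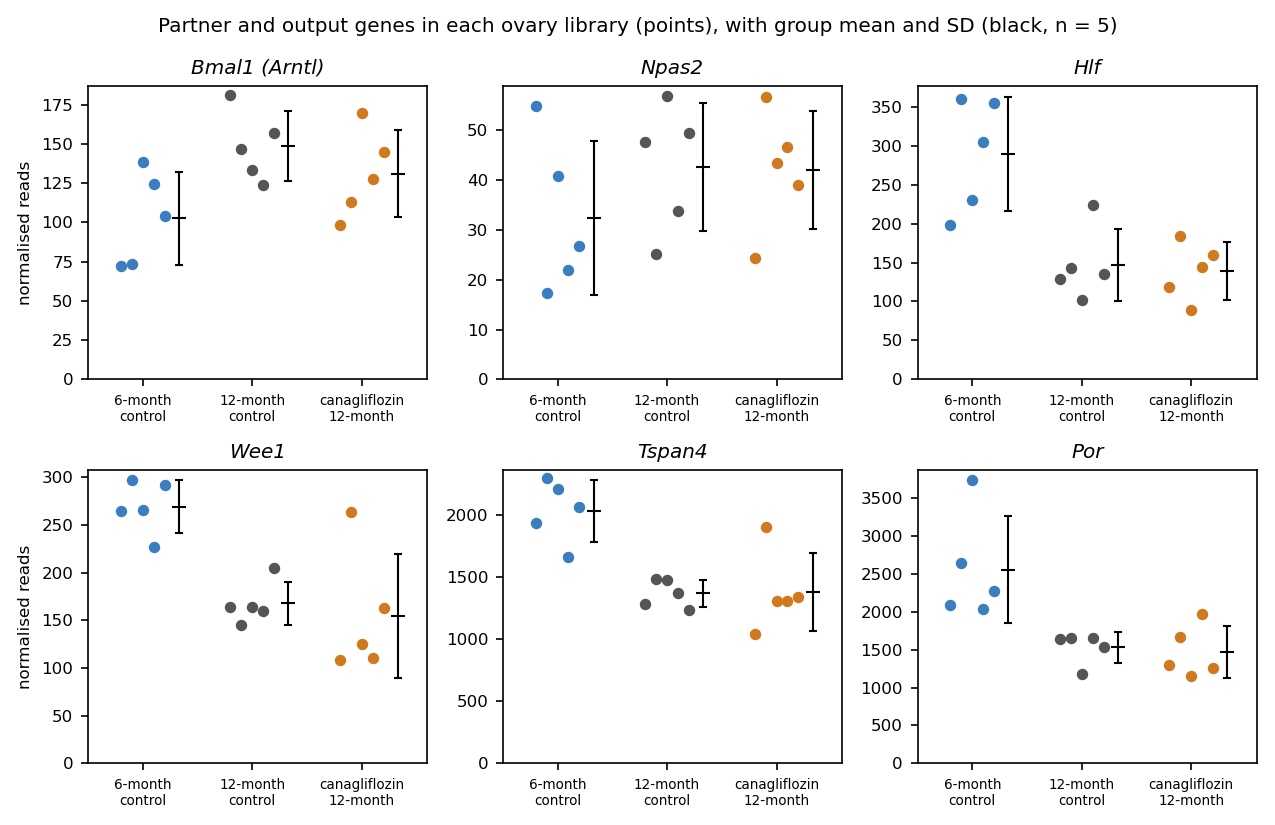
Normalised reads of Bmal1 (Arntl), Npas2, Hlf, Wee1, Tspan4 and Por in each of the 15 libraries; points are libraries, black bars the group mean with its SD (n = 5), and each axis starts at 0. Wee1, Tspan4 and Por were below all 6-month libraries in all 5 of the 12-month controls, and Bmal1 overlapped between groups.

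Among 7 genes for turnover and cofactors of clock proteins, 2 were called lower at 12 months. Over all genes tested, 7.01% were called lower and 5.40% higher. A further called gene of this list is not reported here. Csnk1d, the kinase that marks PER proteins for decay, fell by 0.29 on the log2 scale (SE 0.07, limma adjusted p = 0.017). Fbxw11, a ligase subunit that removes PER proteins, fell by 0.54 (SE 0.11, limma adjusted p = 0.0053). Both were also lower in treated than in 6-month mice, and both kept their calls in all 15 fits that left out 1 library. With Bmal1 as covariate Csnk1d had an estimate of -0.31 with age and lost the call (limma adjusted p = 0.084).

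Per1 also answers to glucocorticoids and to acute stimulation, so lists for both were counted. The list of 9 glucocorticoid target genes includes Per1 itself, so its counts are not independent of Per1. Of these 9 genes, 0 were called by limma with age or with the drug at 12 months. Of all genes, 7.01% were called lower and 5.40% higher with age, and 0.00569% in either direction with the drug. In treated against 6-month mice, 14.9% of all genes were called lower and 13.5% higher. Of the 9, 1 was called there, Zbtb16, which was lower (log2 fold change -1.07, SE 0.33, limma adjusted p = 0.023). That call was lost without replicate 3 of the treated mice (adjusted p = 0.063) and without replicate 4 or 5 of the 6-month controls. Of 9 immediate-early genes tested, limma over all 15 libraries called 0 in any comparison, against the same shares of all genes. All 9 estimates were positive in treated against untreated 12-month mice (median log2 fold change 0.60, all genes -0.002). The same held in treated against 6-month mice (median 0.84, all genes 0.010). With age 4 of the 9 were positive (median -0.015, all genes 0.004). Ier2 in treated against 6-month mice passed by edgeR (1.68, adjusted p = 0.046), by DESeq2 (1.67, adjusted p = 0.018) and by limma without replicate 2 of the treated mice or 1 of the 6-month controls. Ier2 and Zfp36, the pair with the smallest p, had log2 fold changes of 0.87 (SE 0.51) and 0.87 (SE 0.45) between treated and untreated 12-month mice. Replicate 3 of the treated mice, at 6872 for Ier2 and 4389 for Zfp36, was far above the others of its group, and its Per1 value of 1448 was not. Bhlhe40 in the 12-month controls stood at 2764, 750, 613, 1817 and 1355 in replicates 1 to 5. As for Per1, replicates 1 and 4 were the highest of the group and replicate 3 the lowest. Among the immediate-early genes, Nr4a1, Jun and Zfp36 had the same replicates highest and lowest in these controls. Fosb and Atf3 had replicates 1 and 4 highest but not replicate 3 lowest. Junb and Egr1 had replicate 3 lowest but not replicates 1 and 4 highest, and Ier2 and Btg2 had neither. The relation of Per1 to this list was not tested.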

How the data were processed

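Poly(A) RNA of 1 ovary from each of 15 mice was sequenced by the submitters with a directional kit. The deposited table holds a signal per gene, reads divided by 1 size factor per library by the authors, as read from its values: at least 99.99% of values per library were whole reads within 0.1 read. In 3 libraries the factor was too close to 1 to be told from rounding. Partek 11.0 and build mm39 are named per the submitters' processing notes; aligner, annotation and normalization were not given in the sources used here.

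Groups came from sample titles. Genes that reached a value of 10 in 5 or more libraries were fitted with limma 3.58.1 (R 4.3.3) on log2(value + 1), with trend and robust variance, over all 15 libraries, with Benjamini-Hochberg adjustment and a threshold of 0.05. Fold changes on this scale understate low genes. edgeR 4.0.16 and DESeq2 1.42.0 were run on recovered reads as alternatives, with voom, other pseudocounts and filters, a replicate block, a Bmal1 covariate and each library left out. The fits and the correlation script were tested on simulated data. Correlations used 100000 permutations. Exon lengths and overlaps came from GENCODE M21 (GRCm38), matched by Ensembl gene identifier. Besides the overlaps given for Nr1d1 and Dbp, Cry2 shares 4.67% of its exon bases with D930015M05Rik and Tef 2.45% with Gm17597. Both lie on the opposite strand. Of 24656 genes, 23876 had an identifier found in the reference gene names. No library pair agreed within sampling noise.

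The clock genes, lists and tests were chosen with earlier results of these data known. Named are all 10 clock genes, Bmal1, Npas2, Nfil3, Hlf, Ciart, Bhlhe40 and Bhlhe41, any other listed pathway gene called in a comparison (1 such gene is not reported here), the pair with the smallest p in each list, genes overlapping a clock gene, and the 6 genes most and least like Dbp. The 9 immediate-early genes tested are named too. Marker lists for 12 cell classes were counted.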

Additional observations from a re-analysis of the deposited data

Results flagged for a closer look

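Among 26 of the named genes, 78 groups of 5 libraries were examined for a library far from the others of its group, and 6 stood out. Chance gives about 1 in 20 groups. Of the clock genes only Tef did, where replicate 2 of the canagliflozin mice was the highest of its group at 2680 normalised reads, with the next at 2047. Bhlhe40 was highest in replicate 4 of the 6-month controls at 3686 (next 1478). Ier2 was highest in replicate 3 of the canagliflozin mice at 6872 (next 1226) and in replicate 1 of the 6-month controls at 1395 (next 610.5). Zfp36 was also highest in replicate 3 of the canagliflozin mice, at 4389 (next 1184). Por was lowest in replicate 3 of the 12-month controls at 1173 (next 1540).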

How the results depend on the processing

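The drug comparison called 0 of the 10 clock genes in every setting run. The age comparison called 4 in the main fit, 4 by edgeR, DESeq2 and voom, 5 with only the 2 groups compared, 6 at an adjusted p of 0.1, 3 to 6 with 1 library left out and 1 with Bmal1 as covariate. Treated against 6-month mice it was 5, with 3 in the 2 groups alone (Clock, Cry2 and Nr1d1), 3 with Bmal1 as covariate, 4 by edgeR (Tef at adjusted p = 0.052), and 2 to 5 with 1 library left out. The cause was not tested.

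Over all genes the drug comparison gave 1 call, 9 by edgeR, 59 by DESeq2, 18 by voom, 2 without the filter, 11 at an adjusted p of 0.1, 0 with only the 2 groups, 0 with Bmal1 as covariate, and 0 to 37 with 1 library left out (37 without replicate 5 of the canagliflozin mice). The age comparison gave 2179, with 3302 by voom, 794 with Bmal1 as covariate and 1537 to 2402 with 1 library left out; treated against 6-month mice gave 4982, with 3923 to 5318. With the replicate number as a block the counts were 3, 2126 and 4912, and 0, 4 and 5 clock genes were called. Same-numbered libraries of different groups correlated at -0.298 to 0.249, with 3 of 15 pairs over 0.1. Libraries of unlike number ran from -0.433 to 0.376, so these correlations cannot show whether the numbers paired the mice.

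Some small estimates, none of them called, changed sign. In the drug comparison Tspan4 was 0.009 by edgeR, 0.010 by DESeq2 and 0.003 by voom; voom gave -0.023 for Nr1d2, 0.025 for Npas2 and -0.243 for Bhlhe40, and the Bmal1 covariate -0.025 for Cry1, 0.003 for Cry2 and 0.030 for Npas2. With age, voom gave 0.077 for Zfp36, and the covariate 0.018 for Nr1d2, -0.084 for Nfil3 and 0.159 for Ciart. Treated against 6-month mice, voom gave -0.069 for Bhlhe41, and the covariate 0.146 for Per2, 0.054 for Nr1d2 and -0.113 for Nfil3. With 1 library left out, drug estimates ran from -0.069 to 0.093 for Cry1, -0.112 to 0.065 for Cry2, -0.128 to 0.001 for Clock, -0.012 to 0.213 for Nr1d2, -0.185 to 0.163 for Npas2, -0.383 to 0.003 for Nfil3, -0.187 to 0.094 for Hlf, -0.193 to 0.361 for Bhlhe40, -0.137 to 0.079 for Tspan4 and -0.191 to 0.003 for Por. Age estimates ran from -0.306 to 0.005 for Ciart and -0.194 to 0.248 for Zfp36. Treated against 6-month estimates ran from -0.376 to 0.125 for Per2, -0.161 to 0.064 for Nr1d2, -0.079 to 0.324 for Nfil3, -0.543 to 0.028 for Bhlhe40 and -0.165 to 0.137 for Bhlhe41.

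Without removing group means, 9 of the 19 relations passed, and r was -0.300 for Bmal1 with Per1, -0.242 for Bmal1 with Cry2 and 0.440 for Dbp with Per1. With 1 library left out, r ran from -0.180 to 0.234 for Bmal1 with Per1 and -0.223 to 0.174 for Dbp with Per1. Among the 26 genes examined for outlying libraries, depth limits Npas2, Ciart and Zbtb16 most, with as few as 15 reads in a library. Other genes given here had fewer, down to 11 reads for Fosb and 0 for the fat cell marker Adipoq.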
